A study of Mus musculus with 8 samples.

Results

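Adiponectin (Adipoq), leptin (Lep), complement factor D (Cfd), resistin (Retn) and Pref-1 (Dlk1) are 5 of the 111 proteins measured on an antibody array of tumour lysates. The 5 were chosen by name, through the Entrez identifiers of the analytes, as products of fat cells and of their precursors. All 5 have duplicate spots on each of the 8 membranes, though some were too dim to use on some or all of them. The question was whether the 5 moved together from membrane to membrane, as the amount of fat tissue in a lysate would make them do.

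Adiponectin, leptin, complement factor D (adipsin) and resistin are hormones or enzymes that mouse adipocytes release into the blood. Adiponectin raises insulin sensitivity, leptin reports fat stores to the brain and falls or rises with them, complement factor D is the serine protease that cleaves factor B in the alternative complement pathway, and mouse resistin impairs the response to insulin. Pref-1 is a surface protein of preadipocytes whose shed extracellular part holds back their differentiation, and its level is lost as fat cells mature. Pref-1 is also made by other immature and endocrine cells, and complement factor D also by some cells of the myeloid lineage, so neither is a marker of fat alone.

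The array was a Proteome Profiler Mouse XL Cytokine membrane, on which captured proteins are read by a biotinylated antibody mixture. TC-1/IR is the radiation-resistant counterpart of TC-1, a mouse line that expresses E6 and E7 of HPV16; the labels do not say whether it is a single clone. Female C57BL mice aged 10 weeks carried tumours under the skin of the right thigh, grown from 300000 TC-1/IR cells or 100000 TC-1 cells. In each line 1 membrane came from each of 4 treatments, which were RT (gamma rays to the whole body, 4 daily doses of 2 Gy), IL-7 (rhIL-7-hyFc, a recombinant human interleukin-7 joined to an Fc, injected under the skin at 50 µg on day 0 and day 7), both (RT plus IL-7), and buffer. The sample titles call the tumours pooled while the design text speaks of individual mice, and the sources do not settle how many animals a membrane stands for. The lines differed in the number of cells injected as well as in radioresistance, and these cannot be told apart. The irradiation covered the fat of the host as well. The labels do not say whether skin or surrounding fat was trimmed from the tumours. None of the 111 analytes is specific to the tumour cells, so the labelled tissue could not be checked by such a marker.

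Intensities are spot brightness on a linear scale, as deposited. They are compared here for 1 protein between membranes, although any scaling between membranes was not given. Between proteins they are not comparable, so a sum or share over several proteins weights each by its brightness. A floor of 2.49, which is 1% of the highest analyte mean, marked values too dim to use. The summed intensity of a membrane was 1473 after RT, 1495 after IL-7, 739 after RT plus IL-7 and 765 with buffer in TC-1/IR, against 1252, 1449, 1173 and 1204 in TC-1. The number of analytes above the floor was 36 to 64 on the TC-1/IR membranes and 68 to 91 on the TC-1 membranes. Where these differences in level touch a result, the value after median centring is given as well, in which each membrane was divided by its level over the 28 analytes above the floor on all 8.

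Complement factor D was above the floor on all 8 membranes and spanned 3.39-fold between the membranes of TC-1/IR, against 1.63-fold in TC-1. Its spots were the most reproducible of the 5 proteins, with a median coefficient of variation of 1.64%. In TC-1/IR its mean was 74.8 ± 3.03 after RT, 83.5 ± 2.87 after IL-7, 26.3 ± 1.16 after RT plus IL-7 and 24.6 ± 0.120 with buffer (SD, n = 2 spots). In TC-1 it was 29.3 ± 0.530, 47.7 ± 0.559, 35.8 ± 0.516 and 33.2 ± 0.488 for the same treatments in the same order. The 2 TC-1/IR membranes after RT alone and IL-7 alone stood above all 4 TC-1 membranes, whereas the TC-1/IR membranes after the combination and with buffer stood below all 4. The groups therefore overlapped, with line means of 52.3 ± 31.2 in TC-1/IR and 36.5 ± 7.92 in TC-1 (SD, n = 4 membranes).

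Leptin had means of 6.13 after RT, 5.13 after IL-7, 6.11 after RT plus IL-7 and 3.28 with buffer in TC-1/IR, and of 7.73, 7.82, 4.63 and 6.05 in TC-1. All 8 values lay above the floor, and the buffer membrane of TC-1/IR was the lowest. The duplicate spots disagreed on 2 TC-1/IR membranes, being 7.83 and 4.42 after RT and 3.86 and 6.39 after IL-7. Line means were 5.16 ± 1.34 in TC-1/IR and 6.55 ± 1.52 in TC-1 (SD, n = 4 membranes), and the lines overlapped.

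Adiponectin, the most fat-restricted of the 5, lay below the floor on 5 of 8 membranes. Its means were 1.27 after RT, 1.18 after IL-7, 1.86 after RT plus IL-7 and 1.14 with buffer in TC-1/IR, against 2.56, 3.33, 3.03 and 1.55 in TC-1. No TC-1/IR membrane and 3 of 4 TC-1 membranes were above the floor. The first spot was brighter than the second on 8 of 8 membranes, by at least 1.92 times, as on the IL-7 membrane of TC-1 with 4.67 and 1.99. Such a fixed order of the spots occurred in 6 of 111 analytes, or 5.41%, and the coefficient of variation between the adiponectin spots was 44.6% to 141%.

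Resistin was below the floor on all 8 membranes. The means were 0.0805 after RT, 0.001 after IL-7, 0.125 after RT plus IL-7 and 0.001 with buffer in TC-1/IR, against 0.95, 1.115, 0.49 and 0.9 in TC-1. Of its 8 TC-1/IR spots, 5 held the placeholder 0.001 that stands for no signal. The lines did not overlap, but this holds for 45% of the 111 analytes with TC-1/IR lower, so it is no result about resistin.

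Pref-1, above the floor on 7 of 8 membranes, separated the lines. In TC-1/IR it measured 5.68 ± 0.502 after RT, 4.15 ± 0.389 after IL-7, 1.52 ± 0.106 after RT plus IL-7, which is below the floor, and 5.01 ± 1.00 with buffer (SD, n = 2 spots). In TC-1 it measured 8.22 ± 0.325, 9.27 ± 0.113, 6.51 ± 0.127 and 6.94 ± 0.170. Every TC-1/IR membrane was dimmer than every TC-1 membrane, with line means of 4.09 ± 1.83 in TC-1/IR and 7.74 ± 1.25 in TC-1 (SD, n = 4 membranes). The same 45% of all analytes separated the lines in this direction.

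**Figure D1:**
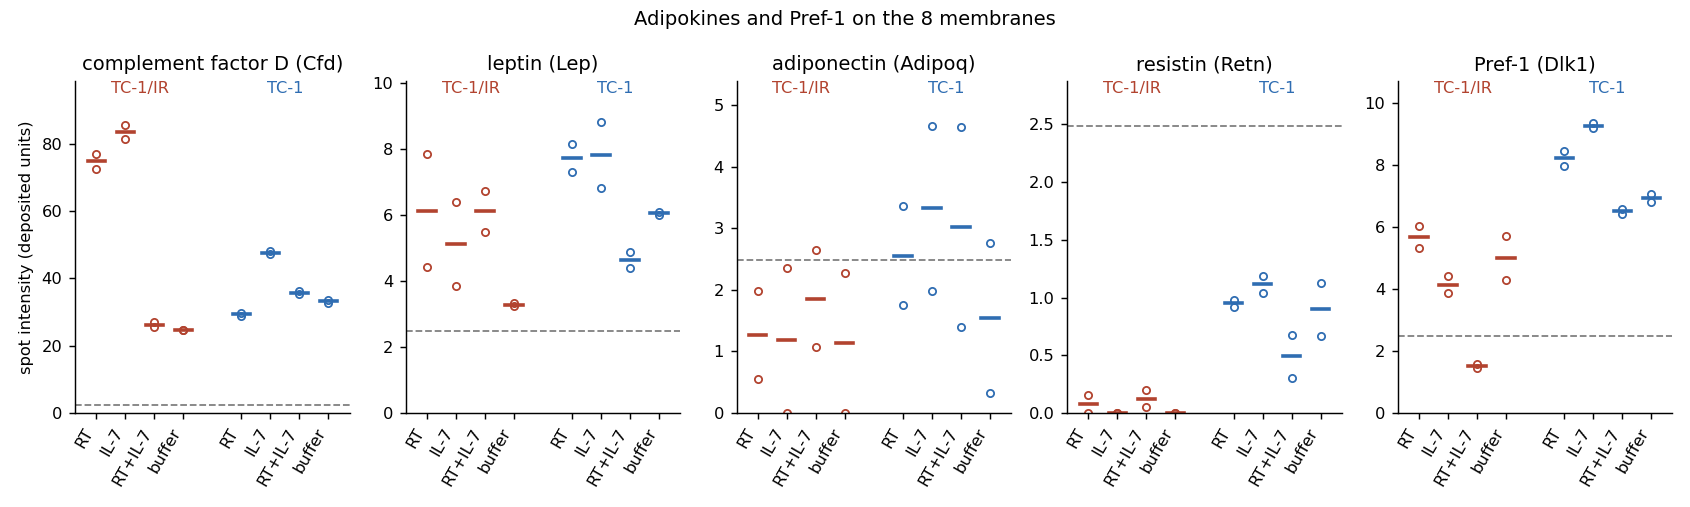
Spot intensity (deposited units, linear axis from 0) of the 5 proteins on each membrane, with TC-1/IR in red and TC-1 in blue; open circles are the 2 spots, bars their mean, and the dashed line is the floor of 2.49. Complement factor D is high on the TC-1/IR membranes after RT (74.8) and IL-7 (83.5), Pref-1 is lower on all 4 TC-1/IR membranes, and resistin is below the floor throughout.

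The difference between the lines was tested with limma over the 8 membranes in a model with line, RT and IL-7. Analytes were tested if at least 4 membranes lay above the floor, which kept 75 and among them complement factor D, leptin and Pref-1 but not adiponectin or resistin. Of the 3 members tested, Pref-1 passed, and it was lower in TC-1/IR. The background was 40% of all analytes tested called lower and 1.33% called higher, with a median difference of -0.58 on the log2 scale. A call of 1 in 3 is near that background, so it does not set Pref-1 apart from the array as a whole. The fitted difference of Pref-1 was -0.89 on the log2 scale (SE 0.28, 95% interval -1.54 to -0.24, limma adjusted p = 0.0370), with the TC-1/IR value after RT plus IL-7 set to the floor. Pref-1 was lower in TC-1/IR in 4 of 4 pairs of like treatment. Leptin differed by -0.36 (SE 0.30, limma adjusted p = 0.362) and was lower in 3 of 4 pairs. Complement factor D differed by 0.32 (SE 0.47, limma adjusted p = 0.628) and was higher in 2 of 4 pairs. Both intervals include 0, at -1.05 to 0.34 for leptin and -0.76 to 1.41 for complement factor D.

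After median centring the call moved from Pref-1 to complement factor D. The centred means of complement factor D were 57.7 after RT, 81.9 after IL-7, 47.0 after RT plus IL-7 and 34.0 with buffer in TC-1/IR, against 24.7, 35.2, 37.7 and 27.0 in TC-1. It was then higher in TC-1/IR by 0.77 on the log2 scale (SE 0.26, 95% interval 0.23 to 1.32, limma adjusted p = 0.0345), where 6.15% of 65 analytes tested were called higher and 21.5% lower. Pref-1 differed by -0.59 after centring (limma adjusted p = 0.0834) and leptin by 0.10 (limma adjusted p = 0.775). On the buffer membranes centred Pref-1 was 6.92 in TC-1/IR and 5.64 in TC-1, so the lines overlapped. As a share of the summed intensity of its membrane, which does not use the 28 analytes, complement factor D made up 5.08%, 5.58%, 3.56% and 3.22% in TC-1/IR after RT, IL-7, both and buffer, against 2.34%, 3.29%, 3.05% and 2.76% in TC-1. The share was higher in TC-1/IR within each treatment, by a log2 difference of 0.58 over the 4 pairs (SE 0.22, limma adjusted p = 0.0673), which did not pass. On that scale, chosen after seeing the data, Pref-1 still passed at -0.78 (limma adjusted p = 0.0425), where 39.7% of 73 analytes were called lower.

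Neither line call held without each single membrane. Pref-1 passed without the TC-1/IR membrane after RT (limma adjusted p = 0.0142) and in none of the other 7 fits that left out 1 membrane, where the adjusted p was 0.0576 to 0.15. Its estimate stayed between -1.10 and -0.66 in all 8 fits, while the number of analytes called on the whole array ran from 5 to 38. The centred difference of complement factor D passed without the TC-1/IR membrane with buffer (limma adjusted p = 0.00264) or after RT plus IL-7 (limma adjusted p = 0.00892) and in none of the other 6 such fits, chosen after seeing the data, though its estimate stayed between 0.58 and 0.97 in all 8. Centred Pref-1 passed in 1 of the 8, without the TC-1/IR membrane with buffer (-0.80, limma adjusted p = 0.0115). As deposited, the estimate of complement factor D turned to -0.15 without the TC-1/IR membrane after RT and to -0.02 without that after IL-7, and neither passed. Adiponectin entered the test with a floor of 0.5% and then passed, at -0.86 (limma adjusted p = 0.0353), where 40.6% of 96 analytes were called lower, while Pref-1 did not in that fit (limma adjusted p = 0.0660). In 3 other fits adiponectin entered and did not pass. It was at -0.36 with a floor per membrane (limma adjusted p = 0.438) and -0.58 with the first spot only (limma adjusted p = 0.0730). With no filter on low values it was at -0.18 (limma adjusted p = 0.208). Resistin entered as log2(value + 1), a scale chosen after seeing the data, and passed at -0.82 (limma adjusted p = 0.0309), where 46.8% of 111 analytes were called lower. On that scale adiponectin did not pass (limma adjusted p = 0.0914). Resistin also entered with no filter, but all 8 of its values were then set to the floor, so that fit could show no difference.

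RT and IL-7 were tested in the same model, and none of the 3 members passed for either, nor did any after median centring. The background was 1.33% of analytes called higher for RT, 0% called lower for RT, and 0% in either direction for IL-7. At an unadjusted p under 0.05 limma gave 2 of the 75 analytes for RT and 0 for IL-7. Complement factor D differed by -0.16 for RT (95% interval -1.25 to 0.92) and by 0.27 for IL-7 (95% interval -0.82 to 1.35) on the log2 scale. Its differences within single pairs ran from -1.67 to 1.60 for RT and from -1.51 to 1.76 for IL-7, so opposite pairs averaged out. Leptin differed by 0.19 for RT and 0.07 for IL-7, and Pref-1 by -0.21 and -0.35, with all limma adjusted p of at least 0.969.

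**Figure D2:**
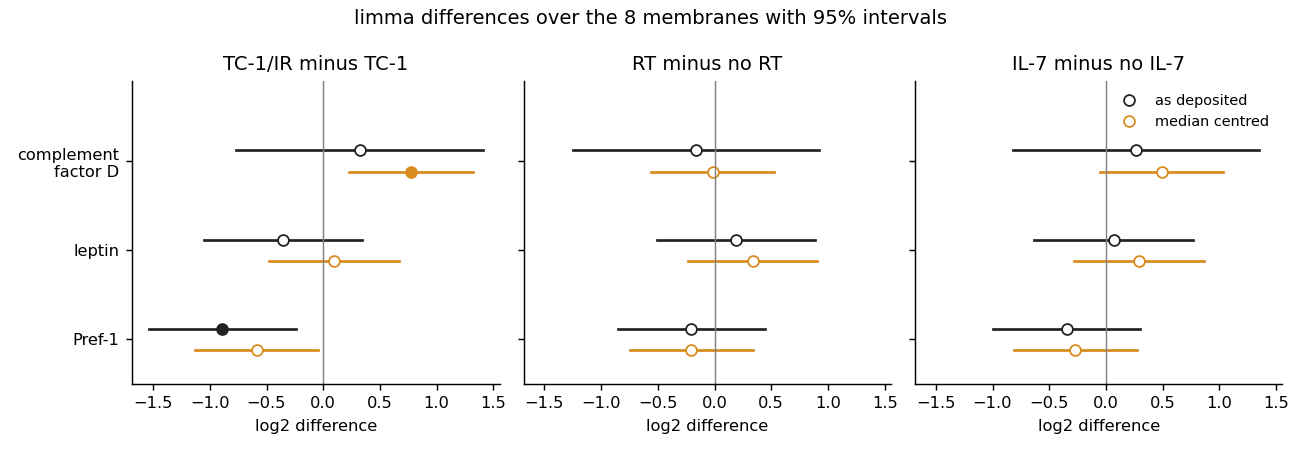
Fitted log2 differences (x axis) of complement factor D, leptin and Pref-1 for line, RT and IL-7, with 95% intervals from limma over 8 membranes; black is as deposited, orange after median centring, and filled points have an adjusted p under 0.05. The filled points are Pref-1 for line as deposited (-0.89) and complement factor D for line after centring (0.77).

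Within the TC-1/IR line, each treatment was set against the buffer membrane, which the 3 comparisons share. With 1 membrane a group there is no test, and a protein was described as higher or lower where the ratio reached 1.5-fold, 1 membrane was above the floor and the spots did not overlap. Complement factor D was 3.03-fold higher after RT and 3.39-fold higher after IL-7, and 1.07-fold apart after RT plus IL-7, which is neither. Leptin was 1.87-fold higher after RT, 1.56-fold higher after IL-7 and 1.86-fold higher after RT plus IL-7, with SEs from spots of 0.40, 0.36 and 0.15 on the log2 scale. Pref-1 was at least 2.01-fold lower after RT plus IL-7 and neither after RT or IL-7 alone. By the same rule 46.3% of analytes were higher after RT, 49.1% after IL-7 and 15.9% after RT plus IL-7, and 2.99%, 5.66% and 18.2% were lower.

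Centring divides all proteins of a membrane by the same level, so it moved ratios between values above the floor alike. The Pref-1 ratio after RT plus IL-7 is a bound against the floor, which was 2.49 as deposited and 2.94 centred. Its log2 bound went from -1.01 to -1.23, while leptin and complement factor D moved up. Complement factor D remained higher after RT, at 1.70-fold (background 22% higher), and after IL-7, at 2.41-fold (background 30.2% higher). Leptin was then higher only after RT plus IL-7, at 2.41-fold (background 24.1% higher). Pref-1 became lower after RT at 1.58-fold and after IL-7 at 1.70-fold, where 22% and 18.9% of analytes were lower. After RT plus IL-7 Pref-1 stayed lower, at no less than 2.35-fold (background 9.26% lower). The direction of Pref-1 after RT depended on the scaling, with a log2 ratio of 0.18 as deposited and -0.66 centred. That of complement factor D was positive either way, at 1.60 and 0.76.

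All 6 other protein lists, like complement factor D and the membranes as a whole, had higher summed intensities after RT and IL-7 alone than with buffer in TC-1/IR. The 5 neutrophil and myeloid products had summed intensities of 182 after RT, 291 after IL-7, 45.0 after RT plus IL-7 and 65.7 with buffer in TC-1/IR, and 112 to 166 in TC-1. Pentraxin 3 belongs to this list, and its r with Pref-1 over the 8 membranes was 0.93, so the sum does not stand for each product. The lists of myeloid products and plasma proteins each share a member with that of other secreted proteins known from fat. The 6 plasma proteins of liver summed to 322, 379, 220 and 216 in TC-1/IR, and to 166 to 230 in TC-1. As a share of the summed intensity the myeloid products made up 12.4% after RT, 19.5% after IL-7, 6.09% after RT plus IL-7 and 8.59% with buffer in TC-1/IR. The plasma proteins made up 21.9%, 25.3%, 29.8% and 28.2% in the same order. After RT or IL-7 alone the myeloid share was thus higher than with buffer and the plasma share lower. After RT plus IL-7 the myeloid share was lower and the plasma share higher. MMP-9 among the myeloid products and C-reactive protein among the plasma proteins were below the floor on every membrane. The part of these lists in the difference of complement factor D was not tested. The lists of platelet content, endothelium and fibroblast products summed to 4.21 to 10.0, 3.44 to 6.57 and 9.79 to 26.3 in TC-1/IR, against 10.6 to 17.3, 7.30 to 11.2 and 23.4 to 28.9 in TC-1. In TC-1/IR the share of the platelet list was higher after RT, IL-7 and both (0.655%, 0.670% and 0.892%) than with buffer (0.550%). The shares of endothelium, fibroblast products and other secreted proteins known from fat were lower than with buffer after each treatment. P-selectin of platelets, endoglin, ICAM-1 and CD93 of endothelium and MMP-3 of fibroblasts were below the floor on every membrane. In a lysate, fewer cells of a type and less protein per cell cannot be told apart.

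In the TC-1 line none of the 4 members with a membrane above the floor was higher or lower by the rule of size after RT, IL-7 or both, against a shared buffer membrane. In these comparisons 19.8%, 31.9% and 16.9% of analytes were higher, and 3.49%, 1.1% and 13.3% lower. The widest ratio among the 3 members above the floor on both membranes was that of complement factor D after IL-7, 1.44-fold above buffer. After centring again no member was called in this line, where 17.8%, 20.5% and 34.2% of analytes were higher and 1.37%, 1.37% and 3.95% lower.

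**Figure D3:**
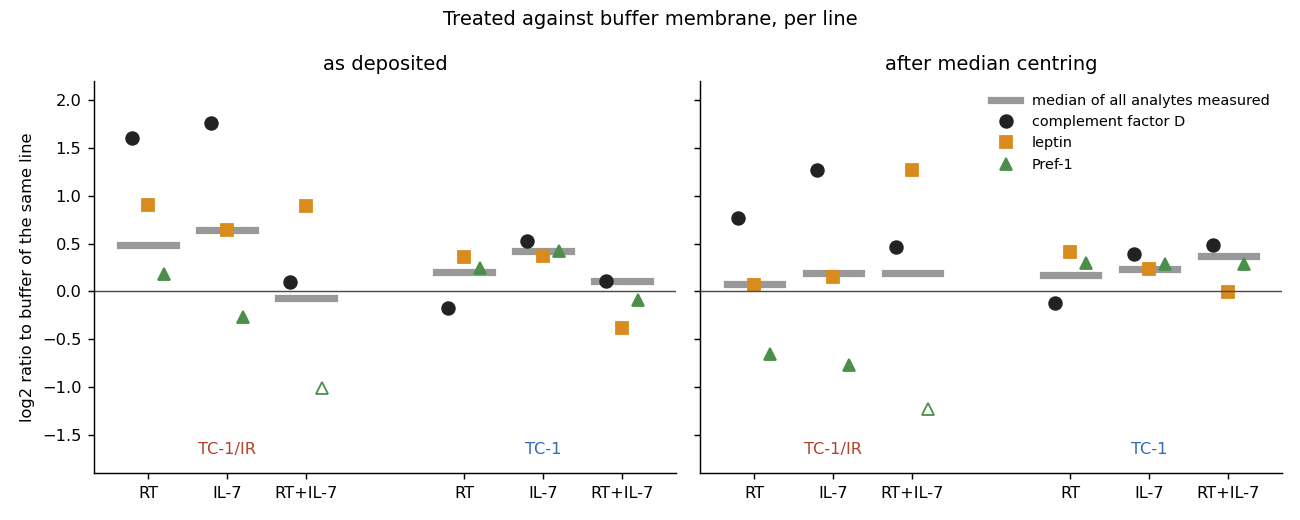
Log2 ratio (y axis) of each treated membrane to the buffer membrane of its line, as deposited on the left and median centred on the right; grey bars are the median of all analytes measured in that comparison, and an open symbol is a bound against the floor. In TC-1/IR complement factor D lies above the grey bar and Pref-1 below it after RT and after IL-7, while in TC-1 all 3 proteins stay between -0.39 and 0.52 in the left panel.

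Between the lines under 1 treatment, complement factor D was 2.55-fold higher in TC-1/IR after RT (background 13.3% higher, 36.7% lower) and 1.75-fold higher after IL-7 (background 6.45% higher), and neither after RT plus IL-7 or with buffer. Pref-1 was 2.24-fold lower after IL-7, where 57% of analytes were lower, and at least 2.61-fold lower after RT plus IL-7, where 56.4% were. Leptin was 1.52-fold lower in TC-1/IR after IL-7 and 1.84-fold lower with buffer (background 51.4% lower, 4.17% higher). After centring complement factor D was 2.33-fold higher after RT and 2.32-fold higher after IL-7 in TC-1/IR, where 13.5% and 16% of analytes were higher. Pref-1 was then 1.58-fold lower after RT, 1.69-fold lower after IL-7 and at least 2.33-fold lower after RT plus IL-7, where 36.5%, 34.7% and 32.9% of analytes were lower. Leptin was 2.24-fold higher after RT plus IL-7 (background 8.86% higher), and on the buffer membranes no member was called (background 21.3% higher, 29.5% lower). The member calls between the lines after centring thus came from treated membranes.

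Whether the effect of 1 factor depended on another was tested with interaction terms in limma, and no member passed; 0% of the 75 analytes were called for any of the 3 interactions. The largest term among members was that of RT by IL-7 for complement factor D, with a log2 value of -1.75 (SE 0.69, limma adjusted p = 0.261), and for that interaction 14 of 75 analytes had an unadjusted p under 0.05. After centring it was -0.67 (limma adjusted p = 0.869). Within TC-1/IR, the combination of RT and IL-7 differed from the sum of the single log2 effects by -3.27 for complement factor D and -0.65 for leptin, beside a median of -1.64 over 28 analytes. Centred, these became -1.56 for complement factor D and 1.06 for leptin, with a median of 0.07. In TC-1 the same quantity was -0.23 for complement factor D, -1.11 for leptin and -0.75 for Pref-1 (median of 63 analytes -0.47), and centred it was 0.22, -0.65 and -0.30 (median -0.02). These within-line values rest on 4 single membranes and have no test.

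To ask whether the members moved together, ratios of 2 proteins on 1 membrane were compared, since scaling of a membrane cancels in them; only their change from membrane to membrane can be read. Complement factor D over leptin was 12.2 after RT, 16.3 after IL-7, 4.30 after RT plus IL-7 and 7.51 with buffer in TC-1/IR, and 3.79, 6.10, 7.74 and 5.49 in TC-1. It therefore spanned 4.30-fold over the 8 membranes, with its highest and second highest values in TC-1/IR after the single treatments. On the log2 scale its SD was 0.72, beside a median of 0.72 over all 378 pairs of the 28 analytes above the floor on all 8. The highest and second highest ratios carried log2 SEs from spots of 0.36 and 0.40, as the leptin spots disagreed there. With the first or the second spot alone the SD was 0.81 or 0.71. As measured, with this spot error included, the ratio of these adipocyte products was no steadier than that of a typical pair of proteins on this array.

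Complement factor D over Pref-1 was 13.2 after RT, 20.1 after IL-7, at least 10.6 after RT plus IL-7 and 4.92 with buffer in TC-1/IR. In TC-1 it was 3.56, 5.14, 5.50 and 4.78. With buffer the lines differed by less than the spot error, at log2 values of 2.30 in TC-1/IR (SE 0.20 from spots) and 2.26 in TC-1 (SE 0.03), whereas the treated TC-1/IR membranes all lay above every TC-1 membrane. The ratio of leptin to Pref-1 varied least, from 0.65 to 1.24 over the 7 membranes on which both were above the floor. Its log2 SD there was 0.32, beside 0.71 for complement factor D over leptin and 0.91 for complement factor D over Pref-1. The median was 0.68 over 496 pairs of 32 analytes, and 5.04% of those pairs varied less. For leptin over Pref-1 the SD was 0.33 with the first spot alone and 0.42 with the second, and its place among all pairs was found for the spot means only. On the eighth membrane, TC-1/IR after RT plus IL-7, leptin over Pref-1 was at least 2.45 and so outside that range.

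**Figure D4:**
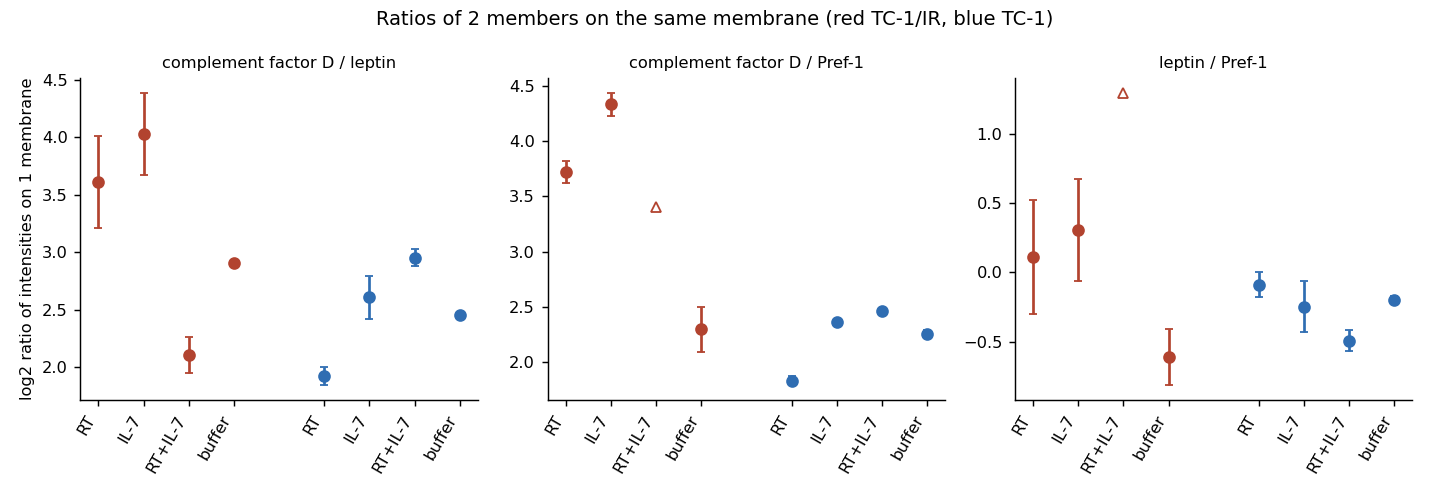
Log2 ratio (y axis) of 2 proteins on the same membrane, TC-1/IR in red and TC-1 in blue; error bars are the SE from duplicate spots, and open triangles are lower bounds because Pref-1 was below the floor. Complement factor D over Pref-1 lies at 2.30 and 2.26 on the buffer membranes of TC-1/IR and TC-1 and at 3.4 or above on the 3 treated TC-1/IR membranes.

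Across the 8 membranes the log2 values of the 3 members tested were correlated below the median of all pairs. Pearson's r was 0.19 for complement factor D and leptin (exact permutation p = 0.657, adjusted p = 0.779 over all 2775 pairs of analytes), 0.07 for complement factor D and Pref-1 (exact permutation p = 0.882, adjusted p = 0.924) and 0.35 for leptin and Pref-1 (exact permutation p = 0.387, adjusted p = 0.563). Spearman's rho was 0.24 (exact permutation p = 0.582), 0.12 (p = 0.793) and 0.55 (p = 0.171) for the same pairs. The median r of the 3 pairs was 0.193, against 0.517 over all pairs. On the TC-1/IR membrane after RT plus IL-7 Pref-1 was set to the floor. Without that membrane r was 0.25 for complement factor D and leptin and -0.38 for complement factor D and Pref-1. For leptin and Pref-1 r was then 0.71, above the median of 0.464 over all pairs. Without the 2 membranes farthest from the median of the first protein of each pair, the r values were 0.52, 0.67 and 0.67. For the pairs with complement factor D these were the TC-1/IR membranes after RT and after IL-7. For leptin and Pref-1 they were TC-1/IR with buffer and TC-1 after RT plus IL-7. Each weak relation thus depended on the membranes left out for it. Centred on the mean of each line, which removes the difference between lines, r was 0.36, 0.45 and -0.02 in the same order. The value for leptin and Pref-1 includes the membrane on which Pref-1 was set to the floor. Over the 4 TC-1 membranes the log2 ratio of leptin to Pref-1 had an SD of 0.17, beside a median of 0.35 over 1953 pairs of analytes. Of those pairs 12.9% varied less, so the loss of the relation cannot be read as holding in both lines. Each line has 4 membranes, too few for a correlation of its own.

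After median centring the relations with Pref-1 were negative. Complement factor D and Pref-1 had r = -0.67 (rho -0.76, exact permutation p = 0.0704 and 0.0368, adjusted p = 0.321 over 2080 pairs and 0.284 for rho). It was -0.62 without the 2 membranes farthest from the complement factor D median, again TC-1/IR after RT and after IL-7. Leptin and Pref-1 had r = -0.58 (rho -0.26, exact permutation p = 0.105 and 0.536, adjusted p = 0.370). The r of leptin and Pref-1 became 0.16 without the 2 membranes farthest from the leptin median. These were TC-1/IR after RT plus IL-7 and TC-1 after RT, and the value rested on them. Complement factor D and leptin had r = -0.02 (rho -0.07, exact permutation p = 0.963 and 0.882, adjusted p = 0.986). The median r was -0.584 for the members and 0.152 for all pairs, and no pair passed. Centred also on each line, the 3 values were -0.16 for complement factor D and leptin, -0.36 for complement factor D and Pref-1 and -0.68 for leptin and Pref-1.

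**Figure D5:**
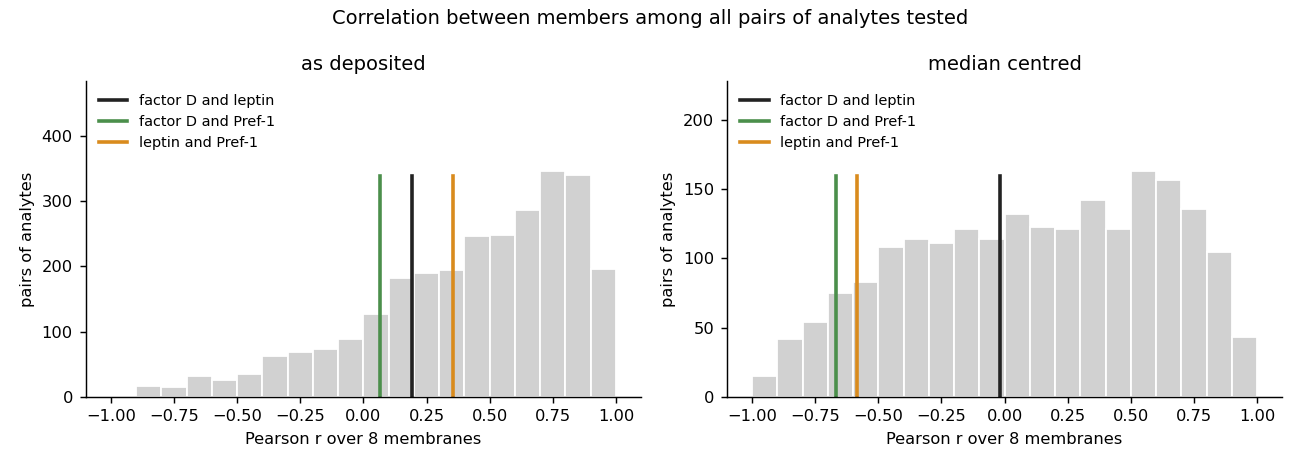
Histograms of Pearson's r over 8 membranes for all pairs of analytes tested (2775 as deposited on the left, 2080 after median centring on the right), with vertical lines at the 3 pairs of members. All 3 lines lie left of the overall median of 0.517 on the left panel, and on the right the pairs with Pref-1 lie at -0.67 and -0.58.

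With the dim members taken in as log2(value + 1), a scale chosen after seeing the data, the 10 pairs had a median r of 0.353, against 0.560 over all pairs. Without centring, adiponectin and resistin were the pair most alike, at 0.75. Complement factor D ran against both, at -0.24 for adiponectin and -0.24 for resistin. Leptin stood between, at 0.52 with adiponectin and 0.67 with resistin. After median centring on this scale adiponectin and resistin were at 0.42, below adiponectin and leptin at 0.63 and resistin and Pref-1 at 0.49, and complement factor D and resistin were at -0.75. The pair most alike therefore depended on the scaling. These are descriptions over 8 membranes, with adiponectin and resistin mostly below the floor.

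The analytes most like each member were found by r over the 8 membranes among the 74 others tested. Complement factor D was most like osteopontin (Spp1), a secreted phosphoprotein of matrix and macrophages, at r = 0.94 (exact permutation p = 0.00171, adjusted p = 0.0603), then PDGF-BB (Pdgfb), a platelet growth factor, at 0.85, and PEDF (Serpinf1), a serpin that mouse adipocytes also release, at 0.84. The relation with PEDF rested on the 2 membranes farthest from the complement factor D median, since r without them was -0.10. Without the same membranes r was 0.75 with osteopontin and 0.82 with PDGF-BB. After centring the most alike were PEDF at 0.86, osteopontin at 0.86 and chemerin (Rarres2), an adipose and liver chemoattractant, at 0.75, with adjusted p of 0.133, 0.144 and 0.221.

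Pref-1 was most like pentraxin 3 (Ptx3), a soluble pattern recognition protein, at r = 0.93 (exact permutation p = 9.92e-05, adjusted p = 0.0413), M-CSF (Csf1), the macrophage growth factor, at 0.91 (adjusted p = 0.0590) and endostatin (Col18a1), a collagen fragment, at 0.88 (adjusted p = 0.0603). The permutation took the 8 membranes as exchangeable, although 45% of analytes were lower on every TC-1/IR membrane, so these p-values include the line difference. Centred on each line the r values were 0.83, 0.77 and 0.68, each lower than over the uncentred membranes. Pref-1 also followed the membrane level, the median of the 28 analytes used for centring, at r = 0.83 (exact permutation p = 0.0112, adjusted p = 0.0336 over the 3 members tested). Without the 2 membranes farthest from the median level, r was 0.53. A link between Pref-1 and these analytes beyond line and level was not tested. After median centring pentraxin 3 was still first at 0.77 (adjusted p = 0.220), followed by LIX (Cxcl5) at 0.70 and interleukin-1 alpha (Il1a) at 0.68. The value for pentraxin 3 became 0.33 without the 2 membranes farthest from the Pref-1 median. Among the analytes most like leptin were IL-1ra (Il1rn), which blocks the interleukin-1 receptor, at 0.67 and the chemokine CXCL11 (Cxcl11) at 0.67, with adjusted p of 0.184 and 0.178. After centring leptin was most like CCL19 (Ccl19) at 0.75, CCL6 (Ccl6) at 0.73 and CCL12 (Ccl12) at 0.71. Without the 2 membranes farthest from the leptin median the first became 0.32 and the second -0.37.

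Other secreted proteins known from fat, but not specific to it, formed a list of 9, of which 8 passed the filter on low values. Between the lines 2 of the 8 were called lower in TC-1/IR and 0 higher, against a background of 40% lower and 1.33% higher, and the median difference was -0.30, beside -0.58 over all analytes. The count is not above that background. The 2 were IGFBP-2 (Igfbp2), which binds insulin-like growth factors, at -1.22 (limma adjusted p = 0.0100) with means of 2.03 ± 1.39 in TC-1/IR and 6.69 ± 1.5 in TC-1 (SD, n = 4 membranes), and FGF-21 (Fgf21), a metabolic hormone of liver and fat, at -1.13 (limma adjusted p = 0.00960) with 1.74 ± 0.420 in TC-1/IR and 5.53 ± 1.11 in TC-1. After centring IGFBP-2 was still lower, at -0.90 (limma adjusted p = 0.00552), FGF-21 was not called, at -0.64 (limma adjusted p = 0.0521), and PEDF was higher, at 1.37 (limma adjusted p = 0.000378), beside 21.5% of analytes lower and 6.15% higher. No TC-1/IR membrane had FGF-21 above the floor, and IGFBP-2 was below it on 2 of 4. For RT and IL-7 none of the 8 was called, with or without centring.

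The 4 adipocyte products summed to 82.2 after RT, 89.8 after IL-7, 34.4 after RT plus IL-7 and 29.1 with buffer in TC-1/IR, against 40.5, 59.9, 43.9 and 41.7 in TC-1. Complement factor D made up 76.5% to 93.0% of this sum in TC-1/IR and 72.3% to 81.5% in TC-1. As a share of the membrane it was 5.58%, 6.0%, 4.65% and 3.8% in TC-1/IR and 3.24%, 4.14%, 3.74% and 3.46% in TC-1.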

How the data were processed

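The deposited values are spot intensities on a linear scale; per the labels' protocols, cleared tumour lysates were incubated with the detection antibodies of the array kit. How images were analysed, background removed or membranes scaled was not given in the sources used here. Placeholder spots of 0.001 or 0.0011 in the deposited files, 98 on TC-1/IR and 5 on TC-1 membranes, stand for no signal. Members and lists were chosen with earlier results of these data known.

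Duplicate spots were averaged and values below the floor (1% of the highest mean) set to it before log2. The intensities were not scaled between membranes, with median centring (scale, then floor) as an alternative. limma 3.58.1 in R 4.3.3 used the additive model, with the interactions as the error (4 residual degrees of freedom), shared variance across 75 analytes and Benjamini-Hochberg adjustment; a call was an adjusted p under 0.05. Replicates do not exist, so limma p-values set a difference against departures from the additive model, which hold the error between membranes as well. No spread between like membranes could be measured. The test code was tested on simulated data. Correlations used exact permutation over 40320 orders, two-sided. The precision of an array value is limited by the number of membranes. Named analytes were the 5 members, the 3 most alike per member with and without centring, and called analytes of the fat-linked list. One of the analytes so named is not reported here. Alternatives were floors of 0.5% and 2%, a floor per membrane, no filter, an intensity trend, treatment as a block, a 2-fold rule, single spots and leaving out each membrane. Chosen after seeing the data were log2(value + 1), single spots in limma and in the ratios, the share of the summed signal, and leaving out membranes after centring. No sequence is shown, since proteins were measured.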

Additional observations from a re-analysis of the deposited data

How the results depend on the processing

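No paired analysis was possible because there was only 1 membrane in each group and no number linked animals across groups, except that the lines could be paired by treatment. With treatment as a block Pref-1 differed by -0.89 between the lines (limma adjusted p = 0.0195). The number of members called for line was 1, and it was 0 with a floor of 2%, with no filter on low values, with the second spot only and without 7 of the 8 membranes taken out in turn (range 0 to 1), and 2 (Pref-1 and resistin) with log2(value + 1). Where it stayed 1 the member was complement factor D after median centring and adiponectin with a floor of 0.5%, and Pref-1 with a floor per membrane, an intensity trend, treatment as a block, the share of the summed signal and the first spot. For RT and IL-7 it was 0 under each alternative run, and for the interactions 0 as deposited and with median centring, the settings under which they were fitted.

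Estimates of members that did not pass changed sign as follows, all on the log2 scale. With median centring the line difference of leptin was 0.10, the line by RT term of complement factor D -0.0065 and the RT by IL-7 term of leptin 0.20. With an RT by IL-7 term the RT difference, which is then that without IL-7, was 0.71 for complement factor D and 0.21 for Pref-1, and the IL-7 difference without RT was 0.072 for Pref-1. The RT difference of leptin was -0.030 with the second spot, and its IL-7 difference -0.056 with a floor of 2% and -0.053 with the first spot. Leaving out 1 membrane at a time gave ranges of -0.15 to 0.73 for complement factor D by line, -0.64 to 0.25 by RT and -0.14 to 0.74 by IL-7. For leptin they were -0.053 to 0.49 by RT and -0.17 to 0.37 by IL-7, and for Pref-1 -0.41 to 0.024 by RT. For leptin by line after median centring the range was -0.20 to 0.26.

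Calls by the rule of size moved with single spots and thresholds. Between the lines the count was 1 after RT and became 2 with centring or with either spot alone. It was 3 after IL-7 and became 1 at 2-fold. It was 1 after RT plus IL-7 and became 2 with centring or the first spot and 0 with a floor of 2%. With buffer it was 1 and became 0 with centring, a floor of 2% or 2-fold, and 2 with the first spot. Against buffer in TC-1/IR the count of 2 became 1 after RT with a floor of 2%, at 2-fold or with the second spot, and 1 after IL-7 with a floor of 2%, at 2-fold or with the first spot. After RT plus IL-7 it became 0 with a floor of 2% and 1 at 2-fold. In TC-1 the count of 0 became 1 after IL-7 and after RT plus IL-7 with the first spot.

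The median r between members, 0.193, was -0.584 with median centring, 0.364 centred on each line, -0.355 with both, -0.0568 with a floor of 2%, 0.353 with log2(value + 1) and 0.00268 with that and centring, and 0.0222 to 0.346 without 1 membrane. Single pairs ran from -0.383 to 0.714 without 1 membrane. With a floor of 2% leptin and Pref-1 reached 0.781, beside a median of 0.391 over all pairs. The cause of these changes was not tested. Signal over background limits adiponectin and resistin, and the floor decides whether they enter a test.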
